A study of Homo sapiens with 12 samples.

Results

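The genes described here encode the malate-aspartate and glycerol phosphate shuttles, which were measured by RNA sequencing in MIAPaCa2 cells, an established pancreatic ductal adenocarcinoma (PDAC) line. They were taken by name: GOT1, GOT2, MDH1, MDH2, SLC25A11, SLC25A12, SLC25A13, GPD1L and GPD2. All 9 were among the 26475 gene symbols with deposited values, and all 9 were among the 14582 genes tested after a filter on low counts. The 12 libraries fall into 4 groups of 3: parental cells without drug, parental cells given oxamate, oxamate-resistant cells without drug, and oxamate-resistant cells given oxamate. Oxamate is a pyruvate analogue that competes for lactate dehydrogenase A (LDHA), and the groups without it are named untreated by the labels and vehicle in the study's text. The resistant cells were the survivors of 10 mM oxamate over 4 weeks, so they stand for 1 selected population from 1 line. How long the cells received oxamate before RNA was taken is not given in the sources used here. Nothing states that the 3 libraries of a group came from separate cultures, so the p-values measure the spread between these libraries, which may be technical.

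Glycolysis reduces NAD to NADH in the cytosol, and lactate dehydrogenase returns NAD by turning pyruvate into lactate. The malate-aspartate shuttle is another route: MDH1 uses cytosolic NADH to make malate, SLC25A11 carries malate into the mitochondrion in exchange for 2-oxoglutarate, and MDH2 makes NADH from it there. GOT2 then makes aspartate, SLC25A12 or SLC25A13 carries the aspartate out in exchange for glutamate, and GOT1 turns it back into oxaloacetate for MDH1. In the glycerol phosphate shuttle a cytosolic glycerol 3-phosphate dehydrogenase (GPD1, or the related GPD1L) uses NADH, and GPD2 in the inner mitochondrial membrane passes the electrons to quinone.

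The libraries held between 46698729 and 114222169 expected counts, and each parental library was deeper than each resistant one. A floor of 3 counts corresponded to between 0.0283 and 0.0581 counts per 1000000 (CPM), far under the level of each shuttle gene. In this line KRT8, KRT18, KRT19 and VIM were detected at a mean of at least 1 CPM in every group, whereas EPCAM and CDH1 stayed under that floor as group means. The summed level of these 6 markers was 12672 to 13781 CPM in parental and 7734 to 8156 CPM in resistant libraries. Of 5 acinar and islet markers, 4 or 5 were at 0 in each group, and 4 endothelial markers summed to at most 1.24 CPM. The 5 immune markers summed to 74.7 to 82.3 CPM in resistant and 182 to 245 CPM in parental libraries, almost all of it CD68 and LYZ. The 6 fibroblast markers summed to 724 to 987 CPM over the 12 libraries. A list of 4 nuclear-retained RNAs, led by MALAT1, summed to 321 to 357 CPM in untreated and 544 to 1187 CPM in oxamate-treated parental cells, and to 534 to 1112 CPM and 1080 to 1407 CPM in the corresponding resistant cells. Its part in the results below was not tested.

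Levels of different genes were compared as CPM per kilobase of exon. In untreated parental cells the highest was MDH2 at 119 ± 2.87 CPM per kilobase (SD, n = 3), followed by GOT2 at 74.0 ± 1.30, MDH1 at 31.6 ± 0.702, SLC25A11 at 28.3 ± 1.18 and GOT1 at 18.8 ± 0.286. Lower on the same scale came GPD1L at 8.38 ± 0.0769, GPD2 at 6.53 ± 0.175, SLC25A12 at 3.53 ± 0.0379 and SLC25A13 at 3.51 ± 0.0446. On this scale MDH2 lay above its cytosolic partner MDH1 and GOT2 above GOT1 in every group, whereas GPD1L lay above the mitochondrial GPD2, an order that was reversed in untreated parental cells when counts were divided by the median transcript length. In untreated parental cells only SLC25A12 and SLC25A13 overlapped among neighbours in this order, and in oxamate-treated parental cells only MDH1 and SLC25A11 did. In both resistant groups the libraries of each gene lay wholly above those of the next, and SLC25A13 had moved past both SLC25A12 and GPD2: it stood at 5.45 ± 0.0904 CPM per kilobase in untreated and 5.94 ± 0.187 in oxamate-treated resistant cells, against 5.01 ± 0.0477 and 5.27 ± 0.125 for GPD2.

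**Figure D1:**
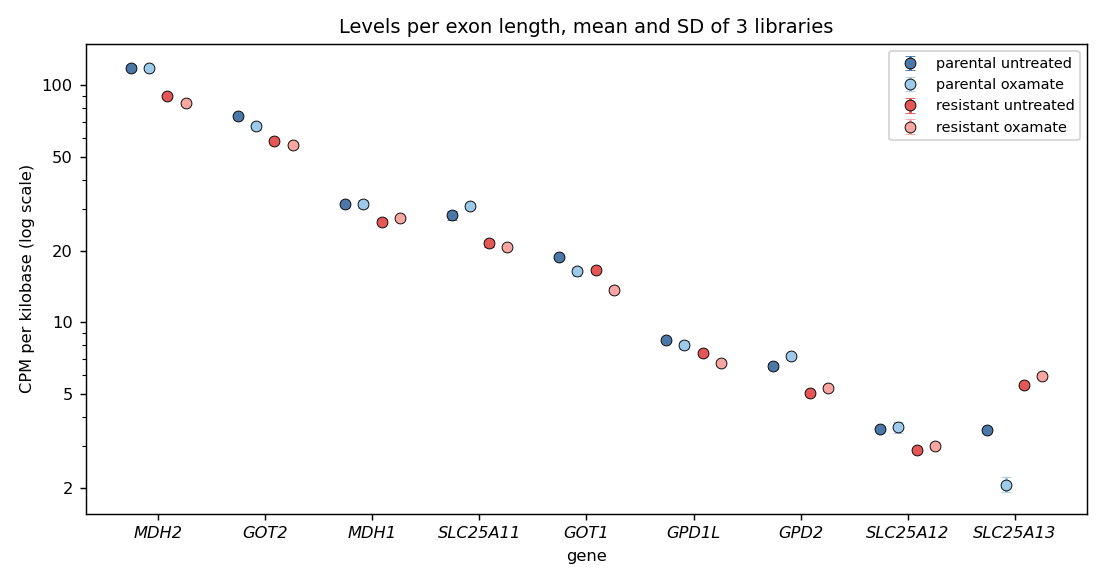
Mean level of each shuttle gene in CPM per kilobase of exon (log axis), with the SD of 3 libraries, in the 4 groups, which are shown by colour. MDH2 was highest in all groups, from 84.6 to 119 CPM per kilobase, and SLC25A13 ranged from 2.06 in oxamate-treated parental to 5.94 in oxamate-treated resistant cells.

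The aspartate-glutamate carriers SLC25A12 (aralar) and SLC25A13 (citrin) catalyse the same exchange, and their mRNAs moved apart. SLC25A13 (GRCh38, minus strand, chr7:96120220-96322147) had TMM-scaled levels of 13.16, 13.02 and 12.83 CPM in the 3 untreated parental libraries and 7.85, 7.02 and 8.10 CPM after oxamate. In resistant cells it had 20.5, 19.9 and 20.2 CPM untreated and 21.5, 21.9 and 22.8 CPM after oxamate. All 4 groups were thus separate, with oxamate-treated parental cells lowest and oxamate-treated resistant cells highest. Oxamate lowered SLC25A13 in parental cells to 0.590 of the untreated level (log2 fold change -0.76, SE 0.0499, adjusted p = 4.92e-09), the only shuttle gene to change by more than 1.5-fold with the drug. In resistant cells the difference with oxamate was 0.13 on the log2 scale (SE 0.0446) and missed the threshold (adjusted p = 0.0572). With the replicate number as a block it was 0.12 (SE 0.0434) and passed (adjusted p = 0.0471). Each treated resistant library lay above each untreated one, so any pairing gives the same direction. In all, 6 alternatives called it (adjusted p from 0.0261 to 0.0471). RLE factors, DESeq2, unrounded counts, no filter and a 1.5-fold limit did not, nor did any of the 6 fits that left out 1 resistant library. Resistant cells had 1.55 times the parental level untreated (log2 0.64, SE 0.0449, adjusted p = 2.80e-09) and 2.87 times under oxamate (log2 1.52, SE 0.0495, adjusted p = 1.30e-13).

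SLC25A12 (GRCh38, minus strand, chr2:171784370-171999859) had 18.2, 18.5 and 18.1 CPM in untreated and 19.5, 17.6 and 18.8 CPM in oxamate-treated parental cells. It had 14.6, 15.2 and 14.9 CPM in untreated and 16.10, 15.58 and 15.04 CPM in oxamate-treated resistant cells. Its parental libraries all lay above its resistant libraries, and treated and untreated libraries overlapped within each line. It was lower in resistant cells with TMM scaling, by log2 -0.30 (SE 0.0428, adjusted p = 1.10e-05) untreated and -0.26 (SE 0.044, adjusted p = 4.60e-05) under oxamate, but scaled by library size alone the values were -0.078 and 0.063 and neither passed the test. The ratio of the 2 carriers' counts within a library does not depend on that scaling. SLC25A12 counts were 1.41 times those of SLC25A13 in untreated and 2.44 times in oxamate-treated parental cells, but 0.736 and 0.707 times in the corresponding resistant cells. The log2 ratio was higher with oxamate by 0.79 (SE 0.0367) in parental cells with no overlap between the libraries, and it differed by -0.058 (SE 0.0617) with overlap in resistant cells. An exact two-sided permutation test of 3 against 3 libraries cannot go below p = 0.1, which it reached for the parental response and for both differences between the lines (adjusted p = 0.123 over 16 tests), while p was 0.5 for the response in resistant cells.

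The upstream sequences of the 2 carriers are shown because the genes encode one activity and moved apart, together with a short stretch of the GOT1 promoter, as GOT1 fell with oxamate in both lines. They are RefSeq sequences of GRCh38.p14 read 5′ to 3′ on the minus strand, cut before annotated GENCODE exons of the carriers, at chr7:96322148-96322348 for SLC25A13, chr2:171894253-171894494 for SLC25A12 and chr10:99430809-99430838 for GOT1. The GOT1 stretch also lies within the first exon of a longer GOT1 transcript in GENCODE. The SLC25A12 stretch lies before a RefSeq start but inside the annotated span of that gene, which reaches to chr2:171999859. Capitals mark the E-box CACGTG in SLC25A13 and, in GOT1, the adjacent ATTGG and TTGCATCA.
SLC25A13: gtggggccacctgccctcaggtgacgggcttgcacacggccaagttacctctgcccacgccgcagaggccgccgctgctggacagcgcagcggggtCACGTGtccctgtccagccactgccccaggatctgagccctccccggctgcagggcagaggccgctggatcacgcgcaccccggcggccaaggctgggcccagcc
SLC25A12: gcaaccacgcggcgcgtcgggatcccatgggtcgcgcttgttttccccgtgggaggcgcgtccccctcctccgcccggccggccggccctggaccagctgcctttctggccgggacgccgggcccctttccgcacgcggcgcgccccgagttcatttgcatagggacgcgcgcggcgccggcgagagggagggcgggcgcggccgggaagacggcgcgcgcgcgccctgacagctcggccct
GOT1: gaggaaattgcATTGGTTGCATCAttctcg
Over both strands of the uncut 250 bases before each RefSeq start, CACGTG was found in SLC25A13 alone of the 9 genes. It began 154 bases before that start, which lies beyond the end of the printed stretch. The motif was found in 6.34% of 35116 windows of all genes. TGATGCAA, the element that ATF4 binds with C/EBP factors and the reverse complement of TTGCATCA, was found in GOT1 alone, 198 bases before the start, and in 0.772% of windows. CCAAT occurred in windows of MDH1, GPD1L, SLC25A13 and GOT1 and in 32.0% of windows, and the ETS motif CCGGAAG in MDH2 and in 8.52%. The CCAAT match of SLC25A13 runs past the end of its printed stretch. The motifs were chosen after the letters had been seen, and a match is a description, not a binding site.

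SLC25A11, the malate and 2-oxoglutarate carrier (chr17:4937130-4940251, minus strand), had 78.3, 75.9 and 72.1 CPM in untreated and 84.5, 84.2 and 79.5 CPM in oxamate-treated parental cells. In resistant cells it had 56.8, 59.9 and 55.9 CPM untreated and 55.0, 56.1 and 55.0 CPM after oxamate. Parental libraries lay above all resistant ones, the 2 parental groups were separate, and the 2 resistant groups overlapped. With TMM scaling it rose with oxamate in parental cells (log2 0.13, SE 0.035, adjusted p = 0.00467), which library size alone did not call (log2 0.055, adjusted p = 0.126), and it differed by -0.057 (adjusted p = 0.294) in resistant cells. It was lower in resistant cells by -0.39 (SE 0.0357, adjusted p = 5.72e-08) untreated and by -0.58 (SE 0.0364, adjusted p = 3.54e-10) under oxamate, where no other shuttle gene was lower by as much. About 9.14% of its exon length overlaps RNF167 on the other strand, and the library kit does not mark strand.

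GOT1, the cytosolic aspartate aminotransferase (chr10:99396870-99431569, minus strand), had 64.1, 62.3 and 63.7 CPM in untreated parental cells and 55.9, 57.2 and 52.7 CPM after oxamate. It had 56.3, 57.0 and 54.9 CPM in untreated and 45.4, 47.1 and 46.1 CPM in oxamate-treated resistant cells. Treated libraries lay below untreated ones in each line. GOT1 fell with oxamate by 0.20 on the log2 scale in parental cells (log2 -0.20, SE 0.0311, adjusted p = 5.22e-05) and by 0.28 in resistant cells (log2 -0.28, SE 0.0325, adjusted p = 3.55e-05), and it was called under all 4 scalings in both. The 2 responses differed by -0.082 (SE 0.045, adjusted p = 0.155). Without the third library of oxamate-treated parental cells, which had the most nuclear-retained RNA of its group, that difference was -0.12 with adjusted p = 0.0276, and the parental response was -0.16. GOT1 was lower in resistant cells by -0.18 (SE 0.0311, adjusted p = 9.52e-05) untreated and -0.26 (SE 0.0325, adjusted p = 1.97e-06) under oxamate with TMM, but by library size alone the values were 0.044 and 0.068. A long noncoding gene on the other strand, AL391684.1, covers 19.3% of the GOT1 exon length.

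MDH1, the cytosolic malate dehydrogenase (chr2:63588609-63607197, plus strand), did not pass the test for oxamate in either line. It had 156, 155 and 161 CPM in untreated and 164, 159 and 151 CPM in oxamate-treated parental cells, which overlapped, and 134, 135 and 129 CPM and 138, 139 and 137 CPM in resistant cells, which did not. The log2 differences with oxamate were 0.0057 (adjusted p = 0.887) and 0.056 (SE 0.031, adjusted p = 0.214). Between the lines MDH1 was lower in resistant cells by -0.25 (SE 0.0305, adjusted p = 2.08e-06) untreated and -0.20 (SE 0.0308, adjusted p = 2.19e-05) under oxamate with TMM, against -0.0275 and 0.13 by library size alone.

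The mitochondrial partners were lower in resistant cells with TMM scaling. GOT2 (chr16:58707131-58734357, minus strand) had 281, 273 and 281 CPM in untreated and 259, 257 and 244 CPM in oxamate-treated parental cells, and 216, 222 and 220.5 CPM and 213, 206 and 211 CPM in resistant cells. Within each line the treated libraries lay below the untreated ones. It fell with oxamate in parental cells (log2 -0.14, SE 0.027, adjusted p = 4.36e-04), had a difference of -0.064 (adjusted p = 0.111) in resistant cells, and was lower in resistant cells by -0.34 (SE 0.0271, adjusted p = 1.06e-08) untreated and -0.27 (SE 0.0274, adjusted p = 1.35e-07) under oxamate. By library size alone the last 2 values were -0.12 and 0.055, and both were called, so that GOT2 was called higher in resistant cells under oxamate. The annotation holds 4 pseudogenes of GOT2, with which RSEM could share reads. The expected counts of GOT2 were whole numbers in all 12 libraries, and whether reads were shared was not tested.

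MDH2 (chr7:76048051-76067508, plus strand) had 444, 429 and 424 CPM in untreated and 440.1, 428 and 431 CPM in oxamate-treated parental cells, groups that overlapped. In resistant cells it had 327, 332 and 324 CPM untreated and 311, 307 and 307 CPM after oxamate, separate from each other and below all parental libraries. It was lower in resistant cells by -0.40 (SE 0.0239, adjusted p = 3.75e-10) untreated and -0.49 (SE 0.0241, adjusted p = 1.68e-11) under oxamate. The fall with oxamate in resistant cells was small (log2 -0.088, SE 0.0241, adjusted p = 0.0178). It missed the threshold without the first or the second untreated, or the second or the third oxamate-treated, resistant library (adjusted p from 0.0523 to 0.0726), and also with upper-quartile factors (adjusted p = 0.0561).

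In the glycerol phosphate shuttle, GPD2 (chr2:156435290-156613735, plus strand) had 45.35, 46.97 and 47.83 CPM in untreated and 50.5, 52.1 and 52.1 CPM in oxamate-treated parental cells, and 35.7, 35.6 and 36.2 CPM and 38.1, 38.3 and 36.7 CPM in resistant cells. Treated libraries lay above untreated ones in each line. GPD2 rose in parental cells with TMM (log2 0.14, SE 0.029, adjusted p = 4.79e-04), which library size alone did not call (log2 0.070, adjusted p = 0.0661), and had a difference of 0.074 (SE 0.0311, adjusted p = 0.101) in resistant cells. Between the lines it was lower in resistant cells by -0.38 (SE 0.0298, adjusted p = 9.27e-09) untreated and -0.45 (SE 0.0303, adjusted p = 7.83e-10) under oxamate.

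GPD1L (chr3:32105689-32168713, plus strand) had 40.0, 40.1 and 40.7 CPM in untreated and 39.6, 38.9 and 36.8 CPM in oxamate-treated parental cells, and 35.9, 35.8 and 34.9 CPM and 33.3, 31.6 and 31.9 CPM in resistant cells. Treated libraries lay below untreated ones in both lines. It fell with oxamate in resistant cells (log2 -0.14, SE 0.0342, adjusted p = 0.0104), and the difference in parental cells was -0.066 (SE 0.0324, adjusted p = 0.0927). Without the first oxamate-treated parental library the parental value was -0.088 with adjusted p = 0.0491. With TMM it was lower in resistant cells by -0.18 (SE 0.0326, adjusted p = 1.14e-04) untreated and -0.25 (SE 0.034, adjusted p = 4.11e-06) under oxamate, against 0.039 and 0.073 by library size alone.

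GPD1, the classical cytosolic enzyme of that shuttle and not one of the 9 genes, had 8.07 ± 0.401 CPM in untreated and 9.57 ± 0.241 CPM in oxamate-treated parental cells, and 5.25 ± 0.308 and 4.198 ± 0.342 CPM in resistant cells (SD, n = 3 each). It rose with oxamate in parental cells (log2 0.25, SE 0.0624, adjusted p = 0.00300), fell in resistant cells (log2 -0.32, SE 0.0745, adjusted p = 0.00708), and its responses differed by -0.57 (SE 0.0972, adjusted p = 1.97e-04). LDHA, whose enzyme oxamate inhibits, had 1074 ± 13.6 and 1647 ± 87.6 CPM in parental and 960.0 ± 13.8 and 1213 ± 13.4 CPM in resistant cells, untreated and treated. It rose with oxamate by log2 0.62 (SE 0.0312, adjusted p = 3.25e-10) and 0.34 (SE 0.0312, adjusted p = 3.14e-06) respectively. LDHB had at most 1 count in any library.

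**Figure D2:**
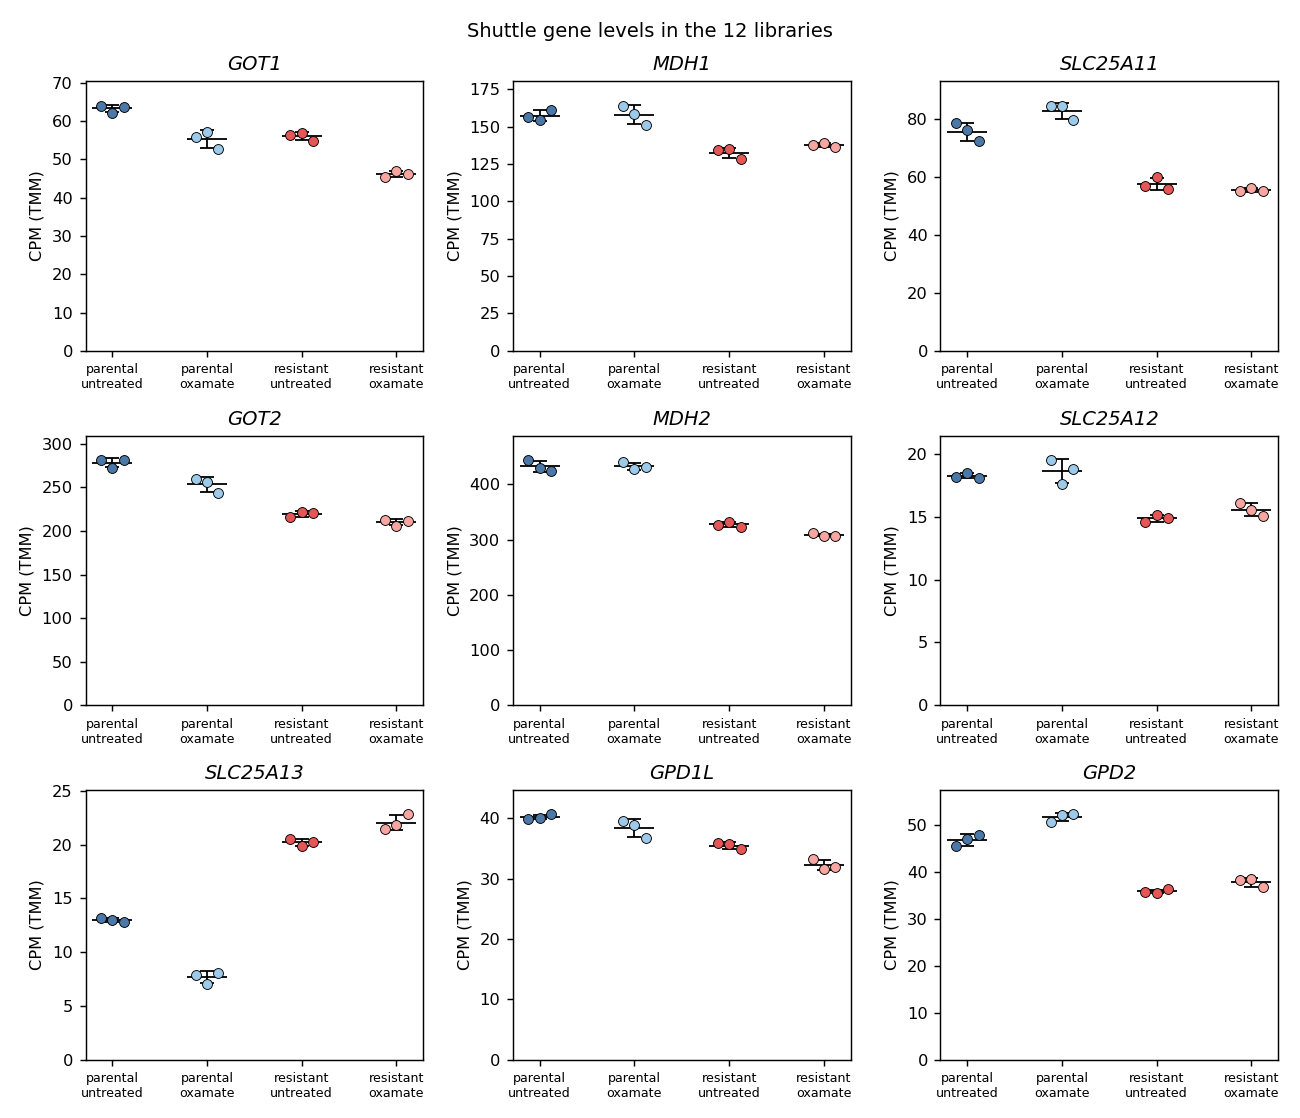
TMM-scaled CPM of the 9 shuttle genes in each of the 12 libraries (points), with the mean and SD of each group of 3 (bars). SLC25A13 lay between 7.02 and 13.2 CPM in parental and between 19.9 and 22.8 CPM in resistant libraries, and the other 8 genes were lower in resistant than in parental groups as means at the same treatment.

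The first comparison asked what oxamate does to these genes in cells not adapted to it. In parental cells 3 of the 9 fell (GOT1, GOT2 and SLC25A13) and 2 rose (SLC25A11 and GPD2) at an adjusted p under 0.05, where 58.7% of all genes tested were called, 28.3% up and 30.4% down. The 5 of 9 is thus near the background. The median log2 fold change was 0.0013 over the 9 and 0.0030 over all genes. Only SLC25A13 also passed a 1.5-fold limit with p under 0.05, which 9.88% of genes did, 5.69% up and 4.19% down. Scaled by library size alone none rose and 6 fell.

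In resistant cells 3 of the 9 fell with oxamate (GOT1, MDH2 and GPD1L) and none rose by edgeR's quasi-likelihood test, where 21.5% of all genes were called, 9.01% up and 12.5% down. None passed the 1.5-fold limit, which 2.5% of genes did, 2.23% up and 0.274% down. The median was -0.057, against -2.1e-05 over all genes. By library size alone 5 were called, with MDH1, SLC25A13 and GPD2 up by log2 0.086, 0.16 and 0.10 and GOT1 and GPD1L down, and MDH2 was no longer called at -0.057. Upper-quartile factors called GOT1 and GPD1L down and SLC25A13 and GPD2 up by 0.15 and 0.098.

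The comparison of the lines asked how adapted cells differ from parental cells. Without drug 8 of the 9 were lower and SLC25A13 was higher in resistant cells with TMM, where 75.7% of all genes were called, 38.4% up and 37.3% down. The median of the 9 was -0.30 against 0.025 over all genes. SLC25A13 alone passed the 1.5-fold limit, which 23.4% of genes did, 17.2% up and 6.14% down. Under oxamate the same 8 were lower and SLC25A13 higher, where 80.3% of all genes were called, 40.6% up and 39.7% down, and the median was -0.26 against 0.015. Again SLC25A13 alone passed the 1.5-fold limit, which 34.3% did, 22.9% up and 11.4% down. These comparisons share libraries with the oxamate comparisons, so their values are given side by side and not set against each other.

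**Figure D3:**
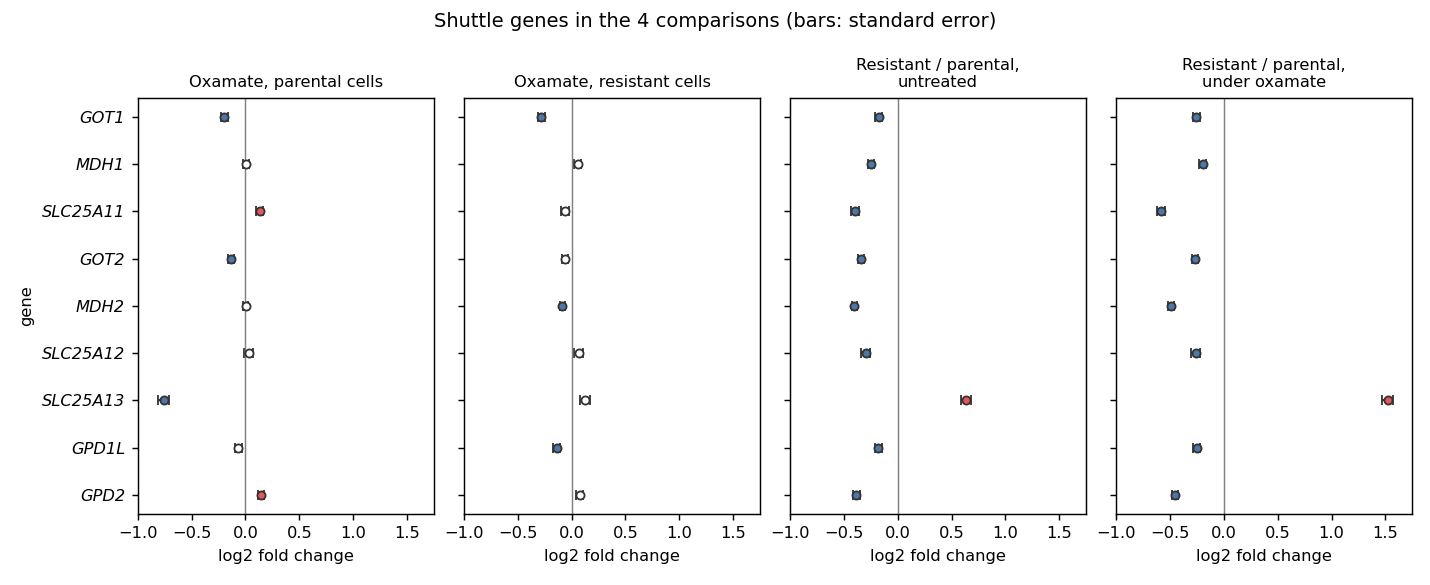
Log2 fold change (points) with its standard error (bars) for the 9 shuttle genes in 4 comparisons, filled blue (lower) or red (higher) at an adjusted p under 0.05 and open otherwise. SLC25A13 had -0.76 with oxamate in parental cells and 1.52 between the lines under oxamate, comparisons that share the oxamate-treated parental libraries. The remaining 8 genes lay between -0.58 and 0.14 in all panels.

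TMM factors were 0.878 to 0.937 in parental and 1.08 to 1.12 in resistant libraries, so scaling by library size alone raised the median of all genes by 0.219 in the untreated and 0.325 in the oxamate comparison of the lines. Over all genes it called 8540 higher and 2769 lower in untreated resistant cells, against 5602 and 5436 with TMM, and 9133 and 2819 under oxamate, against 5923 and 5785. With oxamate it called 2853 up and 5922 down in parental cells, against 4124 and 4439, and 1753 and 1179 in resistant cells, against 1314 and 1825, where upper-quartile factors gave 1679 and 1269. For the difference between the responses the counts were 5050 and 1756. Scaled by library size alone, GOT2, MDH2, SLC25A11 and GPD2 were still called lower in untreated resistant cells (-0.12, -0.18, -0.17 and -0.16), and MDH1 and SLC25A12 were not (-0.0275 and -0.078). Under oxamate MDH2, SLC25A11 and GPD2 were still lower (-0.17, -0.25 and -0.13), whereas GOT1, GOT2, MDH1 and GPD1L were called higher (0.068, 0.055, 0.13 and 0.073). SLC25A13 was higher by 0.86 and 1.84. The values shift together, and which scaling is nearer to the RNA content of a cell was not tested, since library totals do not measure it.

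**Figure D4:**
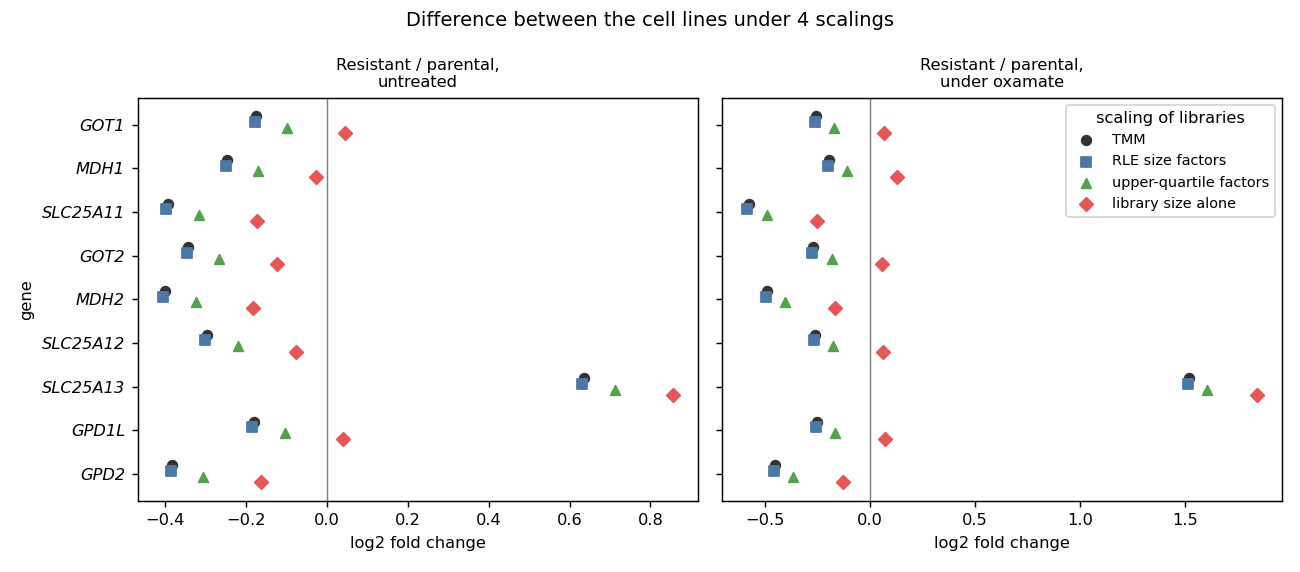
Log2 fold change of the 9 shuttle genes between resistant and parental cells, untreated (left) and under oxamate (right), with 4 ways of scaling libraries shown by colour and shape. With library size alone GOT1 and GPD1L moved from -0.18 to 0.044 and 0.039 in untreated cells, while SLC25A13 stayed above 0.63 in both panels under every scaling.

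A further contrast asked whether the lines answered oxamate differently. SLC25A13 responded differently by log2 0.89 (SE 0.067, adjusted p = 7.15e-08), SLC25A11 by -0.19 (SE 0.051, adjusted p = 0.00725) and MDH2 by -0.089 (SE 0.0339, adjusted p = 0.0433), while 44.2% of all genes were called, 22.7% up and 21.4% down. The share of 3 of 9 is no larger than the background. SLC25A13 alone also exceeded 1.5-fold, which 8.48% of genes did at p under 0.05, 5.54% up and 2.94% down. By library size alone SLC25A13 had 0.99, SLC25A11 had -0.081 (adjusted p = 0.146) and MDH2 had 0.016, while GOT2 (0.18, adjusted p = 3.92e-04) and MDH1 (0.16, adjusted p = 0.00243) were called, so that 3 were up and none down. The MDH2 call was lost in 8 of 12 fits that left out 1 library each: the second or the third untreated parental, the first oxamate-treated parental, the first or second untreated resistant, or any oxamate-treated resistant library (adjusted p from 0.0537 to 0.0957).

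The ratios of the other cytosolic and mitochondrial partners also differed between groups. The log2 ratio of GOT1 to GOT2 counts was -2.13, -2.13 and -2.14 in untreated and -2.22, -2.17 and -2.21 in oxamate-treated parental cells, and -1.94, -1.96 and -2.00 and -2.23, -2.13 and -2.20 in resistant cells. It was lower with oxamate in parental (difference -0.0605, SE 0.0163) and resistant cells (difference -0.22, SE 0.0343) without overlap in either line. The MDH1 to MDH2 log2 ratio had means of -1.46 and -1.45 in parental and -1.30 and -1.16 in resistant cells, untreated and treated, and GPD1L to GPD2 had -0.22, -0.42, -0.013 and -0.23. GPD1L relative to GPD2 differed with oxamate by -0.21 in both lines (SE 0.0468 and 0.0336). In 13 of the 16 tests of 4 ratios in 4 comparisons the libraries did not overlap, and each had the smallest p of the exact permutation test, 0.1, and an adjusted p of 0.123. That was 3 of 4 ratios for oxamate in parental cells, 3 in resistant cells, 4 between the untreated lines and 3 under oxamate, where the ratios of all 46296253 pairs of genes of at least 8 CPM were apart in 70.9%, 47.3%, 81.7% and 86.0%. Most gene pairs were thus apart in 3 of the 4 comparisons. The 3 that overlapped were GOT1 to GOT2 between the lines under oxamate (0.012, p = 0.7 by the exact test), MDH1 to MDH2 with oxamate in parental cells (0.0034, p = 1 by the exact test) and the carriers with oxamate in resistant cells.

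**Figure D5:**
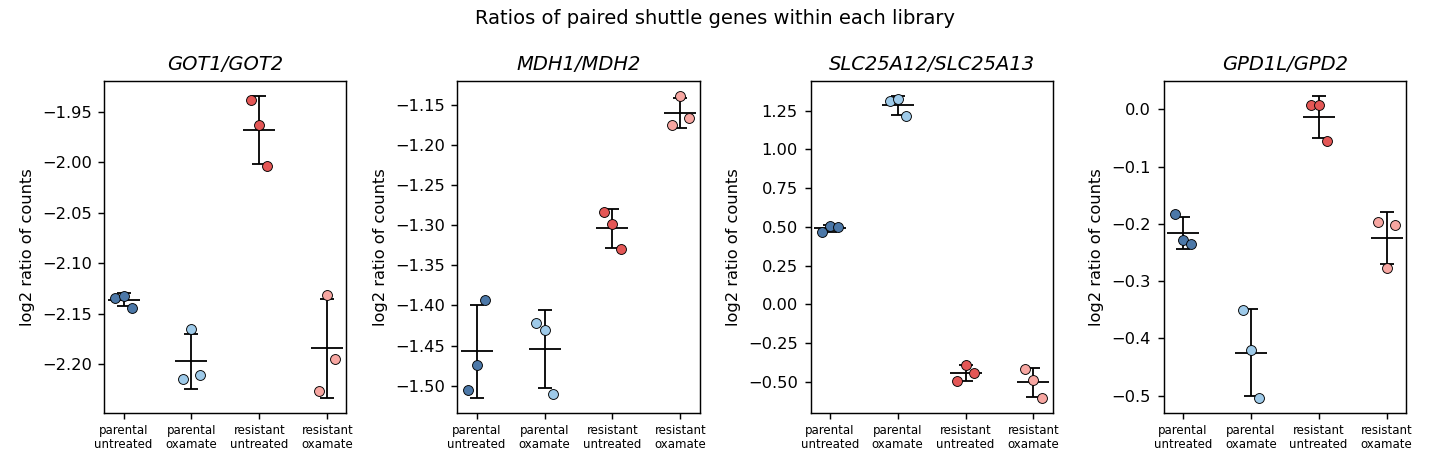
Log2 ratio of the counts of 4 gene pairs within each library (points) with the mean and SD of 3 libraries (bars), where each panel has its own axis. The SLC25A12 to SLC25A13 ratio went from 1.28 in oxamate-treated parental to -0.50 in oxamate-treated resistant cells, the widest span of the 4 pairs.

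Likeness between patterns was measured as the root mean square difference of log2 CPM, centred on each gene, over the 12 libraries and among the 9623 genes whose mean reached 8 CPM. SLC25A13 lay nearest to CCNF (0.0436), which encodes cyclin F, and GPATCH8 (0.0650). GOT1 lay nearest to SLC39A14 (0.0334) and ZNF330 (0.0348), GOT2 to ANAPC5 (0.0196) and PSMD11 (0.0300), MDH1 to TMCO1 (0.0230) and TMEM43 (0.0284), and MDH2 to NDEL1 (0.0190) and ATP5J (0.0192). SLC25A11 lay nearest to LY6E (0.0205) and HAGH (0.0220), SLC25A12 to THOP1 (0.0393) and STRN4 (0.0406), GPD1L to M6PR (0.0206) and OXA1L (0.0210), and GPD2 to UACA (0.0251) and FKBP1A (0.0292). Among the 9 themselves the nearest pairs were MDH1 with SLC25A12 (0.0527) and MDH2 with SLC25A11 (0.0585), and the farthest was SLC25A11 with SLC25A13 (0.826). These distances are not scaled to how much a gene varied. The root mean square of the centred values was 0.117 for MDH1 and 0.142 for SLC25A12. It was 0.225 for MDH2, 0.249 for SLC25A11 and 0.585 for SLC25A13.

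Genes of neighbouring routes were counted in lists with the same test and TMM scaling. The medians of the 6 lists lay between -0.13 and 0.60 for oxamate in parental cells and between -0.33 and 0.18 for the untreated lines, against 0.0030 and 0.025 over all genes. Each count is to be read against the share of all genes called: 38.4% up and 37.3% down between the untreated lines, 40.6% and 39.7% under oxamate, and 22.7% and 21.4% for the difference between responses. Of 15 tested genes around the shuttles, 6 rose and 4 fell with oxamate in parental cells, against 28.3% and 30.4% of all genes, and 2 rose and 5 fell in resistant cells, where 9.01% and 12.5% of all genes did. In that list PC, which makes oxaloacetate from pyruvate, rose in parental cells (log2 0.28, SE 0.0266, adjusted p = 2.39e-07), and the mitochondrial PEP carboxykinase PCK2 fell in resistant cells (log2 -0.21, SE 0.0274, adjusted p = 8.72e-05). Between the lines 2 were higher and 10 lower untreated, and 1 was higher and 9 lower under oxamate. The glutamate carrier SLC25A22 was lower in resistant cells by -0.52 untreated and -0.88 under oxamate (adjusted p = 1.30e-10 and 1.33e-13). The responses differed for 5 of the 15, 1 up and 4 down, with SLC25A22 at -0.37 (adjusted p = 2.94e-06). Scaled by library size, 6 rose and 7 fell with oxamate in parental cells, and between the lines 5 were higher and 7 lower untreated and 6 higher and 6 lower under oxamate. For the difference between responses it called 4 up and 3 down.

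Of 6 tested lactate dehydrogenase and lactate transport genes, all 6 rose with oxamate in parental cells, where 28.3% of all genes rose, and 1, LDHA, rose in resistant cells, where 9.01% did. The lactate exporter SLC16A3 rose by log2 0.64 in parental cells (adjusted p = 3.96e-10) and had 0.0073 in resistant cells (adjusted p = 0.897), and these responses differed by -0.63 (SE 0.0469, adjusted p = 5.67e-08). Between the lines 4 were lower and 1 higher untreated, and 5 were lower under oxamate, with SLC16A1 at -1.05 and -1.19 (adjusted p = 2.02e-14 and 2.58e-15). The responses were lower in resistant cells for 5 of the 6. With library-size scaling 5 rose with oxamate in parental cells, and between the lines 3 were higher and 3 lower untreated and 1 higher and 4 lower under oxamate, and 4 responses were lower.

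Of 9 tested genes of NAD synthesis and its conversion to NADP, 5 rose and 1 fell with oxamate in parental cells, against 28.3% and 30.4% of all genes. In resistant cells 2 rose and 2 fell, against 9.01% and 12.5%. QPRT, which makes nicotinate mononucleotide from quinolinate, rose in parental cells (log2 0.81, SE 0.0576, adjusted p = 1.17e-08), and its response differed between the lines by -0.92 (SE 0.0872, adjusted p = 6.73e-07). Between the lines 5 were higher and 2 lower untreated, and 4 were higher and 2 lower under oxamate. NAMPT, the salvage enzyme, was lower in resistant cells by -0.43 and -0.73 (adjusted p = 3.41e-09 and 2.68e-12). The responses differed for 3 genes, all lower. Library-size scaling gave 7 higher and 1 lower between the untreated lines, and 7 higher and 2 lower under oxamate, with 1 response higher and 2 lower.

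Of 11 tested dehydrogenases that feed quinone, beside GPD2, 4 rose and 2 fell with oxamate in parental cells, and 1 rose and 2 fell in resistant cells, where 58.7% and 21.5% of all genes were called in either direction. DHODH, a step of pyrimidine synthesis, fell in parental cells (log2 -0.36, SE 0.0432, adjusted p = 3.08e-06). The choline dehydrogenase CHDH rose in resistant cells (log2 0.37, SE 0.0442, adjusted p = 4.39e-05). Between the lines 2 were higher and 7 lower untreated, and 3 were higher and 7 lower under oxamate, with SDHB of complex II at -0.48 and -0.57 (adjusted p = 2.28e-11 and 1.72e-12). The responses differed for 9 of the 11, 2 up and 7 down. When scaled by library size, 5 were higher and 6 lower between the untreated lines, and 2 rose and 3 fell with oxamate in parental cells, and the responses were higher for 2 and lower for 3.

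A list around the use of cytosolic NADH held 12 tested genes, not all of whose products use NADH directly. Of these, 8 rose and none fell with oxamate in parental cells, against 28.3% and 30.4% of all genes. In resistant cells 2 rose and 4 fell, against 9.01% and 12.5%. The desaturase SCD rose in parental cells (log2 0.32, SE 0.0215, adjusted p = 5.33e-09) and fell in resistant cells (log2 -0.11, SE 0.0215, adjusted p = 0.00226). Between the lines 3 were higher and 6 lower untreated, and 2 were higher and 9 lower under oxamate, and the responses differed for 4, all lower. Of 5 genes that make or use glycerol 3-phosphate, 4 fell and none rose with oxamate in parental cells, where 30.4% of all genes fell and 28.3% rose. In resistant cells 1 rose and 1 fell, where 9.01% rose and 12.5% fell. GPAM, which adds the first acyl chain, fell in parental cells (log2 -0.54, SE 0.063, adjusted p = 2.43e-06). Between the lines 3 were higher and 2 lower at both treatments, and the responses differed for 2, both higher. Library-size scaling called, of the 12, 4 up and 2 down with oxamate in parental cells, and 7 up and 1 down, and 7 up and 3 down, between the lines untreated and under oxamate, with 1 response up and 4 down. Of the 5 it called 5 down in parental cells, and 3 up and 2 down, and 4 up and 1 down, between the lines, with all 5 responses up.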

How the data were processed

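RNA was enriched with oligo(dT), prepared with a NEBNext kit that does not mark strand and read as pairs of 150 bases. Per the labels, the authors used Bowtie2 2.1.0, RSEM 1.2.15 and hg38, and they deposited RSEM expected counts per gene symbol, with no normalization, of which 11.6% were not whole. The study's text also describes STAR and featureCounts, but fractional values are what RSEM gives.

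The expected counts were rounded, filtered by filterByExpr and tested over 14582 genes with edgeR 4.0.16 (R 4.3.3) by its quasi-likelihood test after TMM scaling, all 12 libraries in 1 model of 4 group means. Adjusted p-values are Benjamini-Hochberg values over all genes tested, with calls under 0.05. The fit was tested on simulated data in which a small set of genes changed in oxamate-treated parental libraries only. Such data cannot check the scaling between the lines. Ratios of counts (0.5 added) were compared by exact permutation tests. Exon lengths and positions came from GENCODE 29 and promoters from RefSeq. Named genes were the 9, LDHA, LDHB, GPD1, list members by smallest p in a comparison, and the 2 nearest patterns. The genes, lists and tests were chosen with earlier results of these data known. Alternatives were other scalings, filters, tools, thresholds, a replicate block and each library left out. Deviations of same-numbered libraries correlated at 0.108 to 0.436 in all 3 pairs of resistant cells with and without oxamate. Pairs with unlike numbers in those groups ran from -0.343 to 0.172, so the ranges overlap. The blocked value stands beside that comparison where it changes a call. Other comparisons had 1 or 2 of 3 pairs over 0.1, and no source states a pairing. The floor of 3 counts covers counting error only. Metabolite and chromatin data were not analysed here.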

Additional observations from a re-analysis of the deposited data

Results flagged for a closer look

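The oxamate response of 3 shuttle genes differed between the lines in edgeR's test of the difference itself. SLC25A13 differed by log2 0.89 (adjusted p = 7.15e-08): it fell in all 3 treated parental libraries relative to all 3 untreated ones and lay higher in all 3 treated than in all 3 untreated resistant libraries. Across the 12 fits that left out 1 library the difference ranged from 0.83 to 0.93. SLC25A11 differed by -0.19 (adjusted p = 0.00725) and ranged from -0.22 to -0.16 in those fits, all of which kept the call. MDH2 differed by -0.089 (adjusted p = 0.0433) and ranged from -0.11 to -0.076, with the call kept in 4 of 12. No explanation of these differences was tested.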

How the results depend on the processing

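Of the log2 values of the 9 genes under alternatives, 759 kept their side of the threshold with no called value changing sign. With the sign kept, a call was lost by 72 and gained by 14, and some of the sign changes also lost or gained a call. Sign changes where the main or the alternative value was called numbered 10, and the causes were not tested. All of these came with library size alone: MDH1 (-0.0698) and MDH2 (-0.0737) for oxamate in parental cells, and GOT1 (0.0442) and GPD1L (0.0389) between untreated lines. Between lines under oxamate they were GOT1 (0.0678), GOT2 (0.0550), MDH1 (0.13), SLC25A12 (0.0629) and GPD1L (0.0731), and for the difference between responses MDH2 (0.0165). Library size alone also changed the sign of values called by neither scaling. These were SLC25A12 for oxamate in parental cells (-0.045), and GOT1 (0.0236), GPD1L (0.0341) and GPD2 (0.0345) for the difference between responses. Library size alone called 5 of the 9 for oxamate in resistant cells and 5 between untreated lines. Requiring a 1.5-fold change, with p or adjusted p under 0.05, left 1 call for oxamate in parental cells, 0 in resistant cells, 1 in each comparison of the lines and 1 for the difference. SLC25A13 in resistant cells passed the threshold in 6 alternatives (adjusted p from 0.0261 to 0.0471), among them the replicate block, upper-quartile factors and limma-voom. It did not pass with RLE factors, DESeq2, unrounded counts or no filter, or in any of the 6 fits that left out 1 resistant library. Library size alone added the difference between responses of GOT2 (0.179) and MDH1 (0.156). The MDH2 fall in resistant cells was lost with upper-quartile factors and library size alone (adjusted p = 0.0561 and 0.0681). The MDH2 difference was also lost with RLE factors, upper-quartile factors and no filter (adjusted p from 0.0559 to 0.0858). Leaving out 1 library gave 5 to 6 calls for oxamate in parental cells, 2 to 3 in resistant cells, 9 in each comparison of the lines and 2 to 4 for the difference.

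Over all groups, the deviations of 18 pairs of libraries with the same number had correlations of -0.231 to 0.436 (median 0.114), of which 10 were over 0.1, against a median of -0.0882 for other pairs. With a replicate block the calls among the 9 were 5 for oxamate in parental cells, 4 in resistant cells, 9 and 9 between the lines and 3 for the difference, and SLC25A13 in resistant cells was the only call among the 9 that the block changed. Divided by the median transcript length instead of the exon union, levels in untreated parental cells were 651 CPM per kilobase for MDH2, 283 for GOT2, 198 for MDH1, 88.5 for GOT1, 79.3 for SLC25A11, 65.5 for GPD2, 64.8 for GPD1L, 25.05 for SLC25A12 and 22.7 for SLC25A13, so GOT1 and SLC25A11, and GPD1L and GPD2, changed places. With 1 library left out, the difference in log2 ratio ran from -0.0143 to 0.0338 for GOT1 to GOT2 between the lines under oxamate and from -0.0205 to 0.0355 for MDH1 to MDH2 with oxamate in parental cells.

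The counts of these genes were far above the floor, but how much counting error adds to their standard errors was not tested. With 3 libraries a group the ratio tests cannot go below p = 0.1 by the exact permutation test.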
